A study of Mus musculus with 16 samples.

Results

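The 37 genes described here mark T cells and their activation: the chains of the T cell receptor and its CD3 complex, coreceptors, receptor signalling proteins, costimulatory and checkpoint receptors, cytokine receptor chains and lineage transcription factors. They were chosen by name from a table of 41411 genes, of which 27009 had a value above 0 in at least 1 of 16 libraries, and all 37 had one. The libraries were made by CEL-Seq, which counts reads from the 3' end of each transcript, from RNA of the esophagus of mice of strain C57BL/6. The mice served as a model for eosinophilic esophagitis, in which allergic inflammation brings eosinophils into the organ. Mice were wild type (WT) or Il13ra1-/- (KO), the latter lacking a chain of the type II IL-4 receptor through which IL-13 signals, and were treated with OXA, an oxazolone hapten that provokes contact allergy, or with vehicle. Each of the 4 groups (WT vehicle, WT OXA, KO vehicle, KO OXA) held 4 libraries. The labels used here give no age, sex, dose or time, name no cell type in which Il13ra1 was deleted, and do not say whether each library came from 1 animal, so p-values measure the spread between libraries.

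An alpha-beta T cell recognises a peptide held by an MHC molecule through a receptor of an alpha and a beta chain, which has no signalling tail of its own and relies on the CD3 and zeta chains. CD4 or CD8 binds the MHC molecule and brings the kinase LCK, which phosphorylates these chains; ZAP-70 then docks and phosphorylates the adaptor LAT. A costimulatory signal through CD28 or ICOS is needed for full activation, and CTLA-4 opposes it. Helper cells of different kinds are set by transcription factors: T-bet for type 1 responses, GATA3 for type 2 responses and FOXP3 for regulatory cells. In eosinophilic esophagitis, type 2 helper T cells are known as a source of IL-13 in the tissue.

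Depth moved with the groups: the 4 WT OXA libraries held 20.2 to 27.3 M reads each (M, mega), those of WT vehicle 5.61 to 9.55 M, those of KO vehicle 7.91 to 16.5 M and those of KO OXA 8.82 to 15.2 M. Some libraries stood apart. KO vehicle replicate 2 was the highest of its group for 26 of 37 members, and its summed B cell markers reached 765, against 31.2 to 55.8 in the other 3 KO vehicle libraries and 13.6 to 85.7 in the 12 libraries of the other groups. KO OXA replicate 3 was the lowest of its group for 27 of 37 members, and KO OXA replicate 4 had reads for 23730 genes, against 16954 to 18278 in the other 3 of its group. Il13ra1, the targeted gene, had a mean value of 191 in WT and 50.1 in KO under vehicle, and of 721 in WT and 99.1 in KO under OXA; a tag from the 3' end need not lie in the deleted part. Across all genes tested, 53.0% of the genes called between OXA and vehicle in WT were higher, against 77.3% with equal library totals, a scaling that moved the median of all genes by 0.31 on the log2 scale. Between KO and WT under OXA the share that was higher moved from 53.1% to 19.9% with that scaling, which shifted the median by -0.39. For the difference between the OXA effects the share moved from 56.9% to 20.3% (a shift of -0.42), and for KO against WT under vehicle from 60.0% to 80.0% of 10 and 5 genes.

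OXA raised most of the T cell genes in WT esophagus. Of 36 members tested, 25 rose, 1 fell and 10 did not pass, where 34.0% of all genes tested were called, 18.0% higher and 16% lower (limma on log2(value + 1), adjusted p under 0.05 over 16748 genes). The groups did not overlap for 28 members that were higher and 1 that was lower, against 18.5% and 15.7% of all genes tested. The median log2 fold change of the members was 2.58, with a range from -0.79 to 4.93, and the median of all genes was 0.10. With equal library totals 30 members rose and none fell, where 5107 of 16748 genes rose and 1496 fell. With quantile normalization 25 members rose and 1 fell, where 5823 of all genes were called. An antisense gene overlaps 12 members and a same-strand gene 12, among them Foxp3 (Ccdc22 and Flicr), Cd27 (Vamp1) and Sh2d1a (Tenm1). Reads in the shared part of an antisense pair cannot be told apart where counting ignored strand, and those of a same-strand pair cannot under any strand setting. In whole tissue, more T cells and more RNA per T cell cannot be told apart. No member was listed at 0 in any WT OXA library. Tcf7, the transcription factor TCF-1 of naive and memory T cells, was under the filter (5 or more in 4 or more libraries), with 1, 34, 7 and 1 reads over the 4 libraries of WT vehicle, WT OXA, KO vehicle and KO OXA. The mean depths of these groups were 7.64, 23.3, 12.9 and 11.6 M reads per library. Gm26551, which overlaps Tcf7 on the same strand, had mean values of 223.1, 133.2, 214.5 and 235.7 in the same order. Whether this overlap kept reads from being counted for Tcf7 was not tested.

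**Figure D1:**
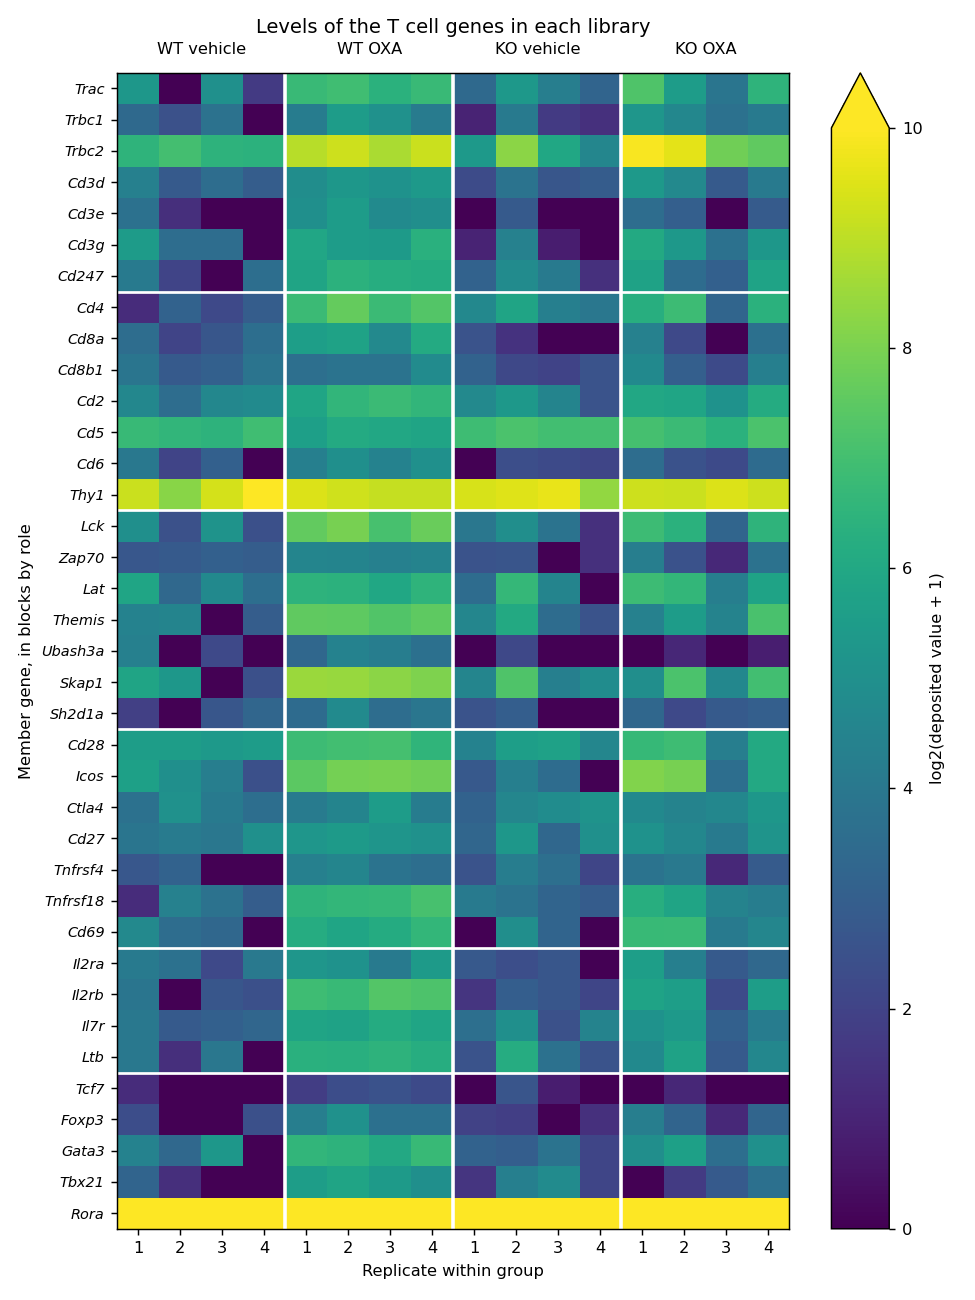
Heat map of log2(deposited value + 1) for the 37 members (rows, in blocks by role) in the 16 libraries (columns, by group and replicate); colours end at 10, which all Rora libraries exceed. The 4 WT OXA libraries are brighter than WT vehicle over most rows, and among KO OXA libraries replicate 3 is the darkest for 27 of 37 members.

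All 7 receptor and CD3 chain genes rose in WT with OXA. Trac, the constant region of the receptor's alpha chain (chr14:54220521-54224206), had values of 38.5, 0, 31.0 and 2.23 in the 4 WT vehicle libraries and of 108, 122, 82.8 and 109.6 in WT OXA, with 9.75, 38.8, 18.3 and 8.21 in KO vehicle and 152, 45.2, 13.6 and 90.6 in KO OXA. Every WT OXA library lay above every WT vehicle library, while the KO groups overlapped. The log2 fold change was 3.72 ± 0.91 (± SE) in WT (limma, adjusted p = 0.00361) and 1.74 ± 0.91 in KO (adjusted p = 0.402). Trbc2, a beta chain constant region (chr6:41546730-41548352), had 89.5, 128, 87.6 and 84.7 in WT vehicle and 486, 599, 421 and 592 in WT OXA, against 40.0, 305, 61.6 and 23.0 in KO vehicle and 964, 778, 225 and 189.9 in KO OXA. KO vehicle replicate 2 overlapped KO OXA replicates 3 and 4, and the remaining KO vehicle libraries were below all KO OXA libraries. Trbc2 rose in both genotypes, by 2.42 ± 0.58 in WT (limma, adjusted p = 0.00301) and by 2.69 ± 0.58 in KO (adjusted p = 0.0142), although the KO call was lost under 7 of 28 alternatives, among them those without KO OXA replicate 1 or 2. Trbc1, the other beta constant region, rose by 2.31 ± 0.77 in WT (limma, adjusted p = 0.0261), a call lost with edgeR. The transcripts of Trbc1 and Trbc2 share 45.6% and 48.7% of their 30-base windows, but none within their last 300 bases, the end that CEL-Seq reads.

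The CD3 genes Cd3g, Cd3d and Cd3e lie together on chromosome 9. Cd3d and Cd3g are read away from each other with 1354 bases between them, and Cd3e lies on the other side of Cd3d. In WT, Cd3d rose by 1.75 ± 0.53 (limma, adjusted p = 0.0148), Cd3e by 3.79 ± 0.92 (adjusted p = 0.00358) and Cd3g by 2.65 ± 0.95 (adjusted p = 0.0364). The Cd3g call was lost in 11 of 28 alternatives, edgeR and DESeq2 among them. Since these genes rose together, the 250 bases before each of their starts are shown from RefSeq (GRCm38.p6), 5' to 3' on the strand of the gene, with those of Tbx21 and Cd5, which are described further on. Capitals mark matches, on either strand, to the RUNX motif TGTGGT, the ETS motifs CCGGAA and also AGGAAG, the E-box CAGCTG, or AGATAA, the motif of GATA factors.
Cd3g, chr9:44980432-44980681, minus strand: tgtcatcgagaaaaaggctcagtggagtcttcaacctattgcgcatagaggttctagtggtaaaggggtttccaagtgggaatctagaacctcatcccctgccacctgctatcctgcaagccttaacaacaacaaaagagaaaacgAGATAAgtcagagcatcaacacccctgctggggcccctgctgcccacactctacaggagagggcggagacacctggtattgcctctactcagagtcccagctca
Cd3d, chr9:44981536-44981785, plus strand: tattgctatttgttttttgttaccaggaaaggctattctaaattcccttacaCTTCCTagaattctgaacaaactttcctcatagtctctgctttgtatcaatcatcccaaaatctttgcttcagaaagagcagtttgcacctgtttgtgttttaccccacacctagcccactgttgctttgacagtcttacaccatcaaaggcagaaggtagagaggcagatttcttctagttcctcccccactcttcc
Cd3e, chr9:45009612-45009861, minus strand: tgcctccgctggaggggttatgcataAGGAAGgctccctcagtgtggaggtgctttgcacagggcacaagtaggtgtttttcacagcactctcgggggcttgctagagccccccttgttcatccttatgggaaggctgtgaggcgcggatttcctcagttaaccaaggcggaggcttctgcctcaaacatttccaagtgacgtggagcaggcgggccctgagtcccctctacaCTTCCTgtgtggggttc
Tbx21, chr11:97115332-97115581, minus strand: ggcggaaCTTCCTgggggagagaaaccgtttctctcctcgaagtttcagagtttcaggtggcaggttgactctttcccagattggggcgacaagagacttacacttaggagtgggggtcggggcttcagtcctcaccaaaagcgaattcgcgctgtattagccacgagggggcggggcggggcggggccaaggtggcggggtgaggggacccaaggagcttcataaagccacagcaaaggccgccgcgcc
Cd5, chr19:10738975-10739224, minus strand: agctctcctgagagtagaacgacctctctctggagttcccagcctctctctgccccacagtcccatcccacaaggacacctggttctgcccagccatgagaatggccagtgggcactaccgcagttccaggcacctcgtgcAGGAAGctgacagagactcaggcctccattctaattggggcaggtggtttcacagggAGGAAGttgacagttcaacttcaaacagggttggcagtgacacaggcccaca
The Cd3g window held 1 AGATAA, the Cd3d window 1 AGGAAG, the Cd3e window 2 AGGAAG, the Tbx21 window 1 AGGAAG and the Cd5 window 2 AGGAAG, the last of these genes being one that fell. RefSeq promoters were matched for 23 of 37 members, with 29 windows in all. AGGAAG was in 15 of 29 member windows, against 29.5% of all 32851 windows of that length. CCGGAA was in 4 of 29 (12.03% of all windows), TGTGGT in 2 (14.0%), CAGCTG in 2 (13.0%) and AGATAA in 2 (9.99%). These matches describe letters only.

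Cd3e, whose epsilon chain pairs with both delta and gamma, was 12.4, 1.55, 0 and 0 in WT vehicle and 30.5, 45.7, 26.7 and 29.7 in WT OXA, against 0, 6.04, 0 and 0 in KO vehicle and 11.0, 7.14, 0 and 6.30 in KO OXA. It was listed at 0 in 5 of the 8 vehicle libraries, and its WT OXA values stood above all the others. Cd247, the zeta chain that carries most of the signalling motifs of the complex, had 16.5, 3.09, 0 and 11.1 in WT vehicle and 55.9, 85.7, 73.8 and 70.7 in WT OXA, where no library overlapped. Its log2 fold change was 3.72 ± 0.84 in WT (limma, adjusted p = 0.00196) and 1.18 ± 0.84 in KO (adjusted p = 0.566). Cd247 overlaps Pou2f1 on the opposite strand, and whether the counting used strand is not given in the sources used here. In KO, Cd3g had 0.970, 19.9, 0.760 and 0 under vehicle and 66.0, 39.3, 12.4 and 37.8 under OXA, a log2 fold change of 3.56 ± 0.95 (limma, adjusted p = 0.0593); without KO vehicle replicate 2 it was 4.51 and passed (adjusted p = 0.00685).

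Among the coreceptors, Cd4 had the largest change in WT. Cd4 (chr6:124864692-124888221) encodes the coreceptor of helper and regulatory T cells, and is also made by some myeloid cells. Its values were 1.38, 7.73, 3.65 and 6.69 in WT vehicle and 111, 197, 113 and 159 in WT OXA, against 24.4, 56.1, 19.0 and 14.8 in KO vehicle and 75.2, 114, 8.66 and 81.9 in KO OXA. All KO vehicle libraries lay above all WT vehicle libraries, and the KO OXA libraries spanned the KO vehicle range with replicate 3 the lowest of both KO groups. OXA raised Cd4 by 4.76 ± 0.63 in WT (limma, adjusted p = 1.11e-05) while the KO log2 fold change was 0.99 ± 0.63 (adjusted p = 0.51). The KO effect minus the WT effect was -3.78 ± 0.88 (limma, adjusted p = 0.00601), and it passed in all 27 alternatives, between -4.59 and -2.97. Under vehicle the log2 difference of Cd4 between KO and WT was 2.32 ± 0.63 (limma, adjusted p = 0.313), and the same comparison in OXA-treated mice gave -1.46 ± 0.63 (adjusted p = 0.09). The vehicle groups thus stood apart in their values, although this difference did not pass the test over all genes.

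Cd8a, the alpha chain of the coreceptor of cytotoxic T cells, was 11.02, 3.09, 5.47 and 11.1 in WT vehicle and 47.2, 53.9, 25.1 and 67.5 in WT OXA, against 4.87, 1.73, 0 and 0 in KO vehicle and 20.2, 3.57, 0 and 11.8 in KO OXA. The WT OXA libraries were above every other library. Cd8a rose by 2.56 ± 0.81 in WT (limma, adjusted p = 0.02) and was lower in KO OXA than in WT OXA by a log2 difference of -2.97 ± 0.81 (adjusted p = 0.0097). Cd8b1, the beta chain, 35.9 kb away, had a log2 fold change of 0.61 ± 0.57 in WT (limma, adjusted p = 0.44), with WT vehicle at 13.8, 6.18, 7.30 and 13.4 and WT OXA at 11.6, 12.8, 12.9 and 27.0. The Cd8b1 groups overlapped, and WT OXA replicate 4 was high.

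Cd2, an adhesion receptor that binds CD48 in the mouse, rose in WT by 2.06 ± 0.48 (limma, adjusted p = 0.00239), from 21.2 ± 7.06 to 89.4 ± 22.6. Cd5 and Cd6, neighbours on chromosome 19 with 50.4 kb between them, are related scavenger-type receptors that modulate receptor signalling, and they moved in opposite directions. Cd5 (chr19:10718143-10738974) had 106, 95.8, 87.6 and 123 in WT vehicle and 48.6, 68.2, 62.4 and 56.7 in WT OXA, against 117, 144, 125 and 126 in KO vehicle and 130.2, 111, 82.9 and 143 in KO OXA. Every WT OXA library was below every library of the other 3 groups. Cd5 was also read as a percentage of the summed receptor and CD3 chain values of the same library. It was 46.1 to 117% in WT vehicle, 6.03 to 8.75% in WT OXA, 33.7 to 308% in KO vehicle and 9.83 to 34.9% in KO OXA. The part of cells other than T cells in the Cd5 values was not tested. Cd5 fell in WT with a log2 change of -0.79 ± 0.22 (limma, adjusted p = 0.00787), its KO log2 fold change was -0.16 ± 0.22 (adjusted p = 0.803), and it was the 1 member higher in KO OXA than in WT OXA, by 0.96 ± 0.22 (adjusted p = 0.00241). With equal library totals both calls were lost (WT -0.48, limma adjusted p = 0.113; KO against WT 0.55, adjusted p = 0.0715). Cd6 rose in WT by 2.41 ± 0.75 (limma, adjusted p = 0.0182), a call lost with edgeR. Thy1, a surface glycoprotein that fibroblasts and nerves also make, was between 299.8 and 1023 in WT vehicle and between 557 and 712 in WT OXA, a log2 value of 0.06 ± 0.29 (limma, adjusted p = 0.899).

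**Figure D2:**
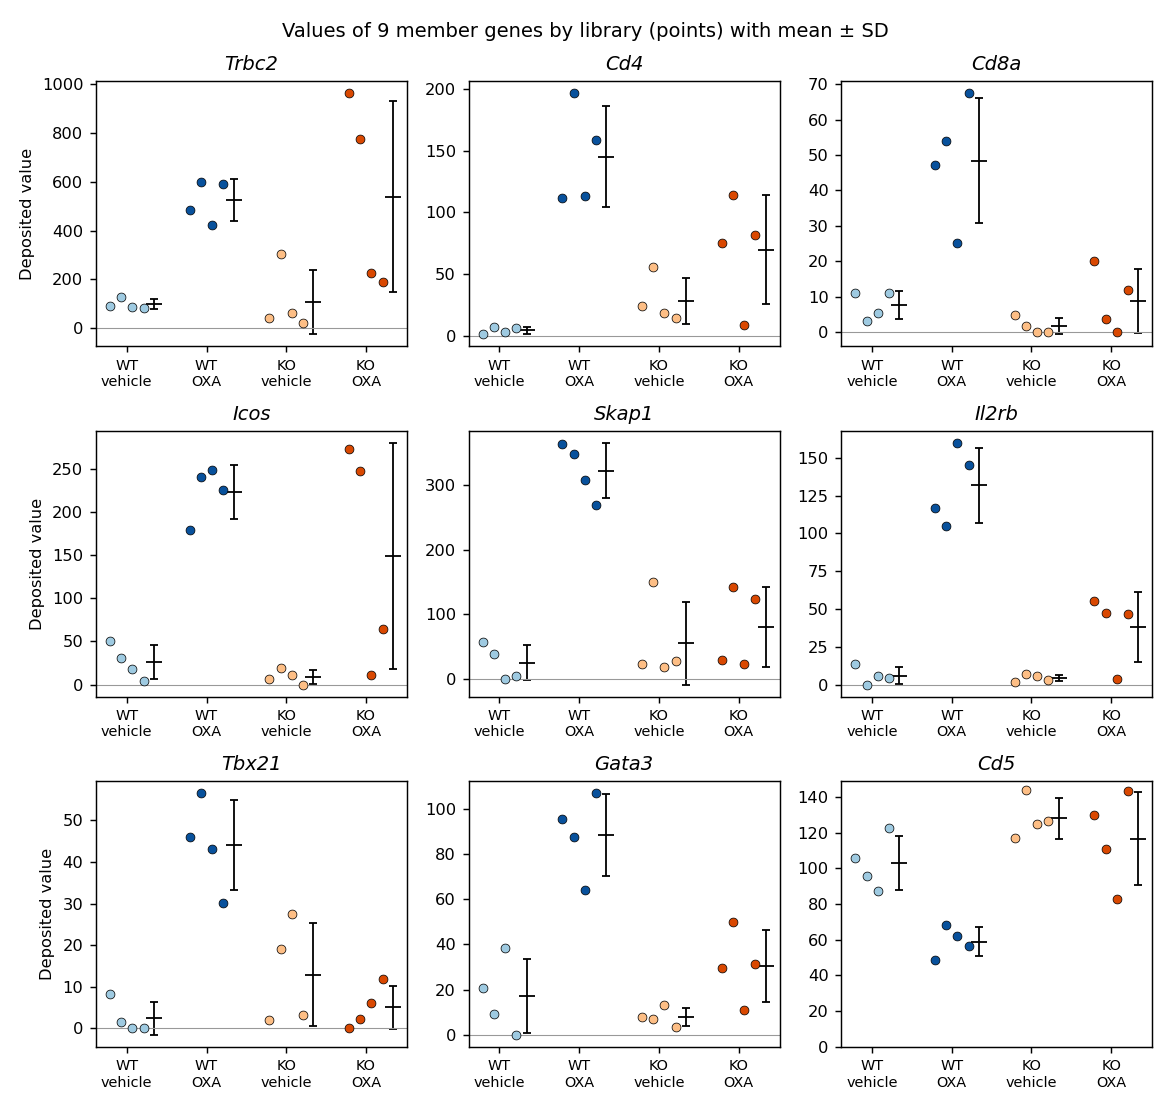
Deposited values of 9 members in every library (points, by group) with the group mean ± SD (n = 4) at the right of each group; each panel has its own vertical axis from 0. Trbc2 and Icos reach WT OXA levels in KO OXA replicates 1 and 2, Tbx21 stays between 0 and 11.8 in KO OXA, and Cd5 is lowest in WT OXA.

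Of 7 receptor signalling genes, 3 rose in WT and 4 did not pass. Lck, the kinase carried by the coreceptors, was 30.3, 4.64, 34.7 and 4.46 in WT vehicle and 194, 249, 136 and 211 in WT OXA, against 14.6, 29.3, 12.9 and 1.64 in KO vehicle and 114, 83.3, 8.66 and 89.8 in KO OXA. It rose by 3.83 ± 0.79 in WT (limma, adjusted p = 0.000998), with a log2 fold change of 2.23 ± 0.79 in KO (adjusted p = 0.193), where KO OXA replicate 3 lay within the vehicle range. Without that library the KO value was 3.06 and passed (limma, adjusted p = 0.0253). Themis, an adaptor best known from T cell selection in the thymus, went from 12.2 ± 10.6 to 178 ± 14.5 (SD, n = 4) in WT, a rise of 4.51 ± 0.84 (limma, adjusted p = 0.000398). In KO it was 23.4, 65.6, 10.7 and 4.92 under vehicle and 20.2, 45.2, 21.0 and 138 under OXA, a log2 fold change of 1.19 ± 0.84 (limma, adjusted p = 0.565). The difference between the Themis effects was -3.32 ± 1.19 and did not pass (limma, adjusted p = 0.0586), though 7 of 27 alternatives called it.

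Skap1, an adaptor that couples the receptor to integrin adhesion (chr11:96464593-96759130), had 56.5, 38.6, 0 and 4.46 in WT vehicle and 364, 349, 308 and 270.0 in WT OXA, against 22.4, 150.2, 19.0 and 27.9 in KO vehicle and 29.3, 142, 23.5 and 124 in KO OXA. The WT OXA libraries were above all the others, while KO OXA replicates 1 and 3 were near the low KO vehicle libraries. Its log2 change of 4.93 ± 0.94 in WT was the largest of any member (limma, adjusted p = 0.000505), and its log2 fold change in KO was 0.68 ± 0.94 (adjusted p = 0.806). The difference of -4.25 ± 1.33 passed (limma, adjusted p = 0.0327), but was lost in 11 of 27 alternatives, including DESeq2 (adjusted p = 0.0785), the fit without KO vehicle replicate 2 (0.0753) and the fit without KO OXA replicate 3 (0.0709). By limma it was lost without replicate 3 or 4 of WT vehicle, replicate 1, 2 or 3 of WT OXA, replicate 2 of KO vehicle, or replicate 1 or 3 of KO OXA (-4.27 to -3.12, adjusted p = 0.0532 to 0.0753).

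Zap70, the kinase that docks on the phosphorylated CD3 chains, had 5.51, 6.18, 7.30 and 6.69 in WT vehicle and 22.5, 21.6, 19.2 and 21.1 in WT OXA with no overlap, yet did not pass (1.58 ± 0.67; limma, adjusted p = 0.0776). It passed with equal library totals, DESeq2 and 3 other alternatives. Lat, the adaptor below it, had a log2 fold change of 1.94 ± 0.93 (limma, adjusted p = 0.116) with 57.8, 9.27, 25.5 and 11.1 in WT vehicle and 87.5, 84.2, 61.6 and 88.6 in WT OXA, which did not overlap. For Sh2d1a, the adaptor SAP of the SLAM receptors, it was 1.96 ± 0.80 (limma, adjusted p = 0.0632), and for Ubash3a, a phosphatase family protein that dampens receptor signals, 2.29 ± 0.91 (adjusted p = 0.0574). In KO OXA, Ubash3a was 0, 1.19, 0 and 0.790 against 9.07, 20.5, 18.1 and 11.9 in WT OXA. These groups did not overlap, and the log2 difference was -3.43 ± 0.91 (limma, adjusted p = 0.00752), a call that held in all 28 alternatives.

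In the costimulatory and checkpoint group, 5 of 7 genes rose in WT. Icos (chr1:60977927-61000320), a costimulatory receptor of activated T cells that binds ICOS ligand, was 51.0, 30.9, 18.2 and 4.46 in WT vehicle and 179, 241, 248 and 225 in WT OXA, against 5.85, 19.0, 10.7 and 0 in KO vehicle and 273, 248, 11.1 and 64.6 in KO OXA. KO OXA replicates 1 and 2 were as high as WT OXA, replicate 4 was above all KO vehicle libraries, and replicate 3 was within their range. Icos rose in both genotypes, by 3.45 ± 0.91 in WT (limma, adjusted p = 0.00624) and by 3.76 ± 0.91 in KO (adjusted p = 0.0329); the KO call was lost in 10 of 28 alternatives, among them equal library totals (adjusted p = 0.052). Cd28, the main costimulatory receptor of naive T cells, rose by 1.35 ± 0.44 in WT (limma, adjusted p = 0.0224), while Ctla4, which lies between Cd28 and Icos and opposes CD28, had a log2 fold change of 0.47 ± 0.47 (adjusted p = 0.484). For Cd28 the call was lost with reads thinned to 5.61 M per library.

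Tnfrsf4 (OX40) and Tnfrsf18 (GITR), costimulatory receptors of the TNF receptor family, lie 9.55 kb apart on chromosome 4. Tnfrsf18 had 1.38, 20.1, 12.8 and 6.69 in WT vehicle and 90.7, 97.5, 101 and 137 in WT OXA, against 16.6, 12.9, 8.37 and 6.57 in KO vehicle and 75.2, 56.0, 21.0 and 18.1 in KO OXA. OXA libraries were above vehicle libraries in both genotypes without overlap. The WT rise was 3.63 ± 0.57 (limma, adjusted p = 7.95e-05), and the KO value of 1.68 ± 0.57 did not pass (adjusted p = 0.172). DESeq2 called it in KO at 1.89 on the log2 scale (adjusted p = 0.0124), unlike edgeR (adjusted p = 0.0689). Tnfrsf4 rose by 2.63 ± 0.80 in WT (limma, adjusted p = 0.0151), a call lost with edgeR, with a value of -0.17 ± 0.80 in KO (adjusted p = 0.95). Cd69, an early activation and tissue retention marker, rose by 3.31 ± 1.02 in WT (limma, adjusted p = 0.0166), a call lost without WT vehicle replicate 4. In KO it had 0, 29.3, 8.37 and 0 under vehicle and 105, 108, 16.1 and 22.9 under OXA, a log2 fold change of 3.50 ± 1.02 (limma, adjusted p = 0.0938) that passed without KO vehicle replicate 2 (adjusted p = 0.0164). Cd27, a receptor of the same family as Tnfrsf4, had a log2 fold change of 0.99 ± 0.46 in WT (limma, adjusted p = 0.104).

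Of the 3 cytokine receptor chains and Ltb, Il2rb, Il7r and Ltb rose in WT and Il2ra did not pass. Il2rb (chr15:78479256-78495271), the beta chain shared by the IL-2 and IL-15 receptors and also made by natural killer cells, had 13.8, 0, 5.47 and 4.46 in WT vehicle and 117, 105, 159.7 and 145 in WT OXA, against 1.95, 6.90, 5.33 and 3.28 in KO vehicle and 55.0, 47.6, 3.71 and 46.5 in KO OXA. The WT groups stood far apart, and 3 of 4 KO OXA libraries lay between them, with replicate 3 inside the vehicle range. Il2rb rose by 4.78 ± 0.76 in WT (limma, adjusted p = 8.32e-05) while the KO log2 fold change was 2.48 ± 0.76 (adjusted p = 0.115), which passed with edgeR, with DESeq2 and without KO OXA replicate 3 (3.33, limma adjusted p = 0.00577). Under OXA it was lower in KO by -2.23 ± 0.76 (limma, adjusted p = 0.0333), a call lost without KO OXA replicate 3 (adjusted p = 0.143).

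Il7r, the receptor chain for IL-7 and TSLP, rose by 2.60 ± 0.54 in WT (limma, adjusted p = 0.000979), from 15.2, 6.18, 7.30 and 8.91 to 55.9, 53.9, 70.2 and 57.2. Its KO OXA libraries, at 33.0, 40.5, 7.43 and 17.3, were all below WT OXA, with a log2 difference of -1.47 ± 0.54 (limma, adjusted p = 0.0471) that was lost in 13 of 28 alternatives, edgeR among them. Il2ra, the inducible alpha chain of the IL-2 receptor (CD25), had a log2 fold change of 1.43 ± 0.69 in WT (limma, adjusted p = 0.116). Its KO OXA values of 47.7, 19.1, 6.19 and 9.45 lay above all KO vehicle values of 5.85, 4.31, 5.33 and 0. The gap from 5.85 to 6.19 is smaller than 1 read, worth 0.975 in KO vehicle replicate 1 and 1.24 in KO OXA replicate 3. The log2 fold change of Il2ra in KO was 2.08 ± 0.69 (limma, adjusted p = 0.155), which passed with DESeq2 (2.27, adjusted p = 0.0344) and not with edgeR (adjusted p = 0.124). Ltb, lymphotoxin beta, a membrane ligand that organises lymphoid tissue and is also made by B cells, rose by 4.01 ± 0.86 in WT (limma, adjusted p = 0.00138). In KO vehicle, Ltb was 4.87, 72.5, 12.2 and 4.92, and replicate 2, the library high in B cell markers, was above all KO OXA libraries (25.7, 53.6, 6.19 and 23.6).

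Of the 4 transcription factors tested, 3 rose in WT. Tbx21 (T-bet, chr11:97098071-97115331), the factor of type 1 helper, cytotoxic T and natural killer cells, had 8.26, 1.55, 0 and 0 in WT vehicle and 46.1, 56.5, 43.2 and 30.2 in WT OXA, against 1.95, 19.0, 27.4 and 3.28 in KO vehicle and 0, 2.38, 6.19 and 11.8 in KO OXA. It was high in all 4 WT OXA libraries, and the KO groups overlapped. OXA raised it by 4.32 ± 0.88 in WT (limma, adjusted p = 0.000844), and its KO log2 fold change was -1.13 ± 0.88 (adjusted p = 0.609). The difference of the effects was -5.45 ± 1.24 (limma, adjusted p = 0.0051), and KO OXA was below WT OXA by -3.39 ± 0.88 (adjusted p = 0.00659). Both calls held in every alternative run, with the difference of the effects between -6.25 and -3.49. The 4 KO OXA libraries held 22 Tbx21 reads in all, and the 4 WT OXA libraries 403, at mean depths of 11.57 and 23.31 M reads per library. In the deposited values, which are scaled for each library, the means were 5.10 in KO OXA and 44.0 in WT OXA.

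Gata3, the factor of type 2 helper cells, which skin-type epithelium also expresses, had 20.6, 9.27, 38.3 and 0 in WT vehicle and 95.5, 87.8, 64.0 and 107 in WT OXA, against 7.80, 6.90, 12.9 and 3.28 in KO vehicle and 29.3, 50.0, 11.1 and 31.5 in KO OXA. It rose by 3.19 ± 0.78 in WT (limma, adjusted p = 0.00376), and KO OXA replicate 3 was the 1 KO OXA library that overlapped KO vehicle, where the log2 fold change was 1.80 ± 0.78 (adjusted p = 0.298; DESeq2, adjusted p = 0.0298). Foxp3, the factor of regulatory T cells, had 4.13, 0, 0 and 4.46 in WT vehicle and 18.1, 32.3, 11.8 and 11.9 in WT OXA, a rise of 2.97 ± 0.79 (limma, adjusted p = 0.00659). Its KO values were 2.92, 2.59, 0 and 1.64 and 18.3, 8.33, 1.24 and 8.67, a log2 fold change of 1.68 ± 0.79 (limma, adjusted p = 0.34). Rora, a factor of innate lymphoid and type 17 helper cells that many other cell types express, was between 3141 and 3586 in WT OXA and between 1946 and 5096 in WT vehicle, a log2 fold change of 0.03 ± 0.22 (limma, adjusted p = 0.939).

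Of the 26 calls in WT, 18 held in all 28 alternatives and 8 were lost in 1 or more. Leaving out 1 library ended the WT call of Cd3g without replicate 3 or 4 of WT vehicle or replicate 1, 2, 3 or 4 of WT OXA (1.599 to 2.79, adjusted p = 0.0522 to 0.15), of Trbc1 without replicate 4 of WT vehicle or replicate 2 or 3 of WT OXA (1.503 to 2.204, adjusted p = 0.0663 to 0.103), of Cd8a without replicate 2 of WT vehicle or replicate 4 of WT OXA (2.25 to 2.38, adjusted p = 0.054 to 0.059) and of Cd6 without replicate 4 of WT vehicle or replicate 4 of WT OXA (1.65 to 2.30, adjusted p = 0.0501 to 0.0715). The same held for Cd28 without replicate 2 or 3 of WT OXA (1.29 to 1.31, adjusted p = 0.0507 to 0.0588), for Tnfrsf4 without replicate 3 or 4 of WT vehicle (2.15, adjusted p = 0.0538 to 0.055) and for Cd69 without replicate 4 of WT vehicle (2.35, adjusted p = 0.0697), all by limma. Cd5 was lost with equal library totals alone.

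In KO esophagus, OXA changed few members past the threshold. Trbc2 and Icos rose, none fell and 34 did not pass, where 1.90% of all genes tested were called, 1.81% higher and 0.0896% lower (limma, adjusted p under 0.05). At an unadjusted p under 0.05 there were 14 of the 36 members, where 14.2% of all genes tested were. The median log2 fold change was 1.32, against -0.01 for all genes. KO OXA stood above KO vehicle without overlap for Tnfrsf18 and Il2ra, against 3.93% of all genes, and stood below it for no member, against 2.94%. For Il2ra the gap between the groups was smaller than the value of 1 read. DESeq2 called 7 members (4.33% of the genes it tested) and edgeR 3 (2.31%). With equal library totals 1 member passed, where 225 genes rose and 19 fell. With quantile normalization 3 members passed, where 325 of all genes did. Without KO OXA replicate 3 there were 6 calls, which added Il2rb, Lck, Cd28 and Cd3g, with 365 of all genes called. Without KO vehicle replicate 2 there were 5, which added Cd3g, Trbc1 and Cd69, with 290 of all genes called. Without KO OXA replicate 1 or 2, or without KO vehicle replicate 1 or 4, no member passed, with 182 to 234 of all genes called. Trbc2 was lost without replicate 1 or 4 of KO vehicle or replicate 1 or 2 of KO OXA (2.201 to 2.46, adjusted p = 0.0625 to 0.0825), and Icos without replicate 1, 3 or 4 of KO vehicle or replicate 1 or 2 of KO OXA (2.88 to 4.06, adjusted p = 0.052 to 0.167), by limma.

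**Figure D3:**
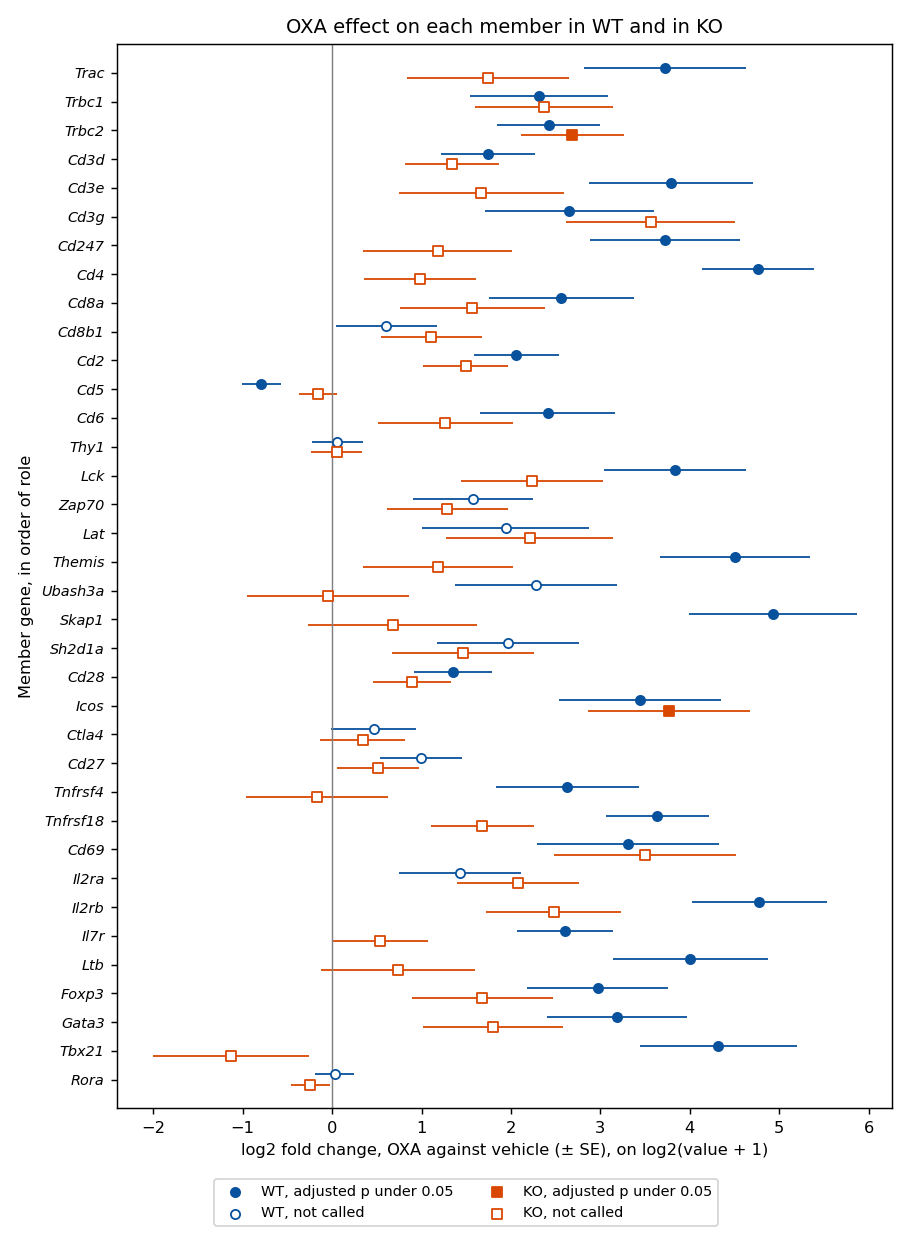
Log2 fold change (± SE) of OXA against vehicle for the 36 members tested, with WT as blue circles and KO as orange squares; filled symbols have an adjusted p under 0.05 (limma). In WT 26 symbols are filled, and in KO those of Trbc2 and Icos.

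The test of the difference between the OXA effects called 3 members, Cd4, Skap1 and Tbx21, all with a smaller effect in KO, and of all genes tested 17.8% were called, 7.67% in that direction and 10.1% in the other (limma, adjusted p under 0.05). For the other 33 members a smaller effect in KO was not shown; the median difference over the 36 members was -0.78, against -0.10 for all genes. With equal library totals 8 members were called, all lower, where 3459 of 16748 genes were lower and 883 higher. With quantile normalization 3 members were called, all lower, where 3131 of all genes were called. For 6 members not called in the fit reported here, at least 1 of 27 alternatives gave a call: Cd247, Themis, Tnfrsf4, Tnfrsf18, Il7r and Ltb.

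Under vehicle, no member passed the test between KO and WT (limma, adjusted p under 0.05; 0.0597% of all genes did, 0.0358% higher and 0.0239% lower), with 5 of 36 members at an unadjusted p under 0.05 (9.13% of all genes tested), and edgeR and DESeq2 called none (0.0418% and 0.293% of all genes). The groups did not overlap for Cd4, higher in KO, and for Zap70, lower in KO, against 2.66% and 2.69% of all genes. Zap70 was 5.51, 6.18, 7.30 and 6.69 in WT vehicle and 4.87, 5.18, 0 and 1.64 in KO vehicle, a difference of -1.24 ± 0.67 (limma, adjusted p = 0.582). These values came from 15 reads in WT vehicle and 12 in KO vehicle. The gap from 5.18 to 5.51 is smaller than the value of 1 read in WT vehicle replicate 1 (1.38).

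Under OXA, 6 members were lower in KO than in WT and 1 was higher, where 12.9% of all genes tested were lower and 14.6% higher (limma, adjusted p under 0.05). The 6 were Cd3e, Cd8a, Ubash3a, Il2rb, Il7r and Tbx21, and the 1 was Cd5. With equal library totals 15 members were lower and none higher, where 5111 of 16748 genes were lower and 1273 higher. With quantile normalization 7 members were lower and 1 higher, where 4943 of all genes were called. The groups did not overlap for 16 members that were lower in KO and 1 that was higher, against 15.3% and 14.0% of all genes tested. The median log2 difference was -1.15, against -0.05 for all genes. Leaving out KO OXA replicate 3, or any 1 of the WT OXA libraries, left 4 members called, with 3618 to 4031 of all genes called. The calls of Cd8a, Ubash3a and Tbx21 held in all 28 alternatives, while that of Cd3e, a log2 difference of -2.69 ± 0.92 (limma, adjusted p = 0.0346), was lost with edgeR, with DESeq2 and by limma without replicate 1, 2, 3 or 4 of WT OXA or replicate 3 of KO OXA (-2.78 to -1.904, adjusted p = 0.0651 to 0.137). Il2rb was lost without replicate 1, 2, 3 or 4 of WT OXA or replicate 3 of KO OXA (-2.33 to -1.37, adjusted p = 0.0541 to 0.143), and Il7r without replicate 3 of WT vehicle, replicate 1, 2, 3 or 4 of WT OXA, replicate 1 of KO vehicle, or replicate 3 or 4 of KO OXA (-1.52 to -1.02, adjusted p = 0.0513 to 0.177). This comparison and the 2 OXA effects share libraries, so their values are given side by side and not as support for each other.

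The summed value of the 7 receptor and CD3 chain genes gave a base in each library against which other members could be read. Its make-up differed between libraries, as Trbc2 alone was 59.1% to 63.0% of it in WT OXA and 72.9%, 83.7%, 81.2% and 46.2% in KO OXA. That sum was 229.9, 155, 153 and 105 in WT vehicle and 786, 982, 713 and 941 in WT OXA, against 63.4, 427, 104 and 41.0 in KO vehicle and 1324, 929, 277 and 411 in KO OXA. KO OXA spanned from below all WT OXA libraries (replicates 3 and 4) to above them (replicate 1). As a percentage of this sum, Tbx21 was 5.87%, 5.75%, 6.05% and 3.21% in WT OXA and 0%, 0.256%, 2.23% and 2.87% in KO OXA, and Cd8a was 6.00%, 5.49%, 3.52% and 7.18% and 1.52%, 0.384%, 0% and 2.87%. Neither gene overlapped between the groups on this scale. Gata3 was 12.1%, 8.94%, 8.97% and 11.4% in WT OXA and 2.22%, 5.38%, 4.02% and 7.66% in KO OXA, again without overlap. Cd4 was 14.2%, 20.02%, 15.9% and 16.9% in WT OXA and 5.68%, 12.3%, 3.12% and 19.9% in KO OXA, where replicate 4 was close to the highest WT library and replicates 1 to 3 were below all of them. Icos was 22.8%, 24.6%, 34.8% and 23.9% in WT OXA and 20.6%, 26.7%, 4.02% and 15.7% in KO OXA, with overlap. Il2rb was 14.9%, 10.7%, 22.4% and 15.4% and 4.16%, 5.13%, 1.34% and 11.3%, also with overlap. Under KO vehicle, Tbx21 was 3.08%, 4.45%, 26.3% and 7.99% of the sum and Cd4 was 38.5%, 13.1%, 18.2% and 36.0%. Over the 36 members tested, KO OXA lay below WT OXA without overlap on this scale for 8, above it for 1, and overlapped for 27. Of all genes tested 1.57% lay below and 11.2% above. On the deposited scale 16 members lay below and 1 above, against 15.3% and 14.0% of all genes tested. Dividing by a sum that was low in KO OXA replicates 3 and 4 raises there any gene that does not follow the sum. The share of 1.57% therefore belongs to this scale and is not a like background for the members. On the scale of the sum, the other members without overlap were Cd3e, Ubash3a, Tnfrsf18, Il7r and Ltb, all lower in KO, and Cd5, higher in KO. Cd3e is itself 1 of the 7 genes in the sum. These shares describe the libraries and were not tested.

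**Figure D4:**
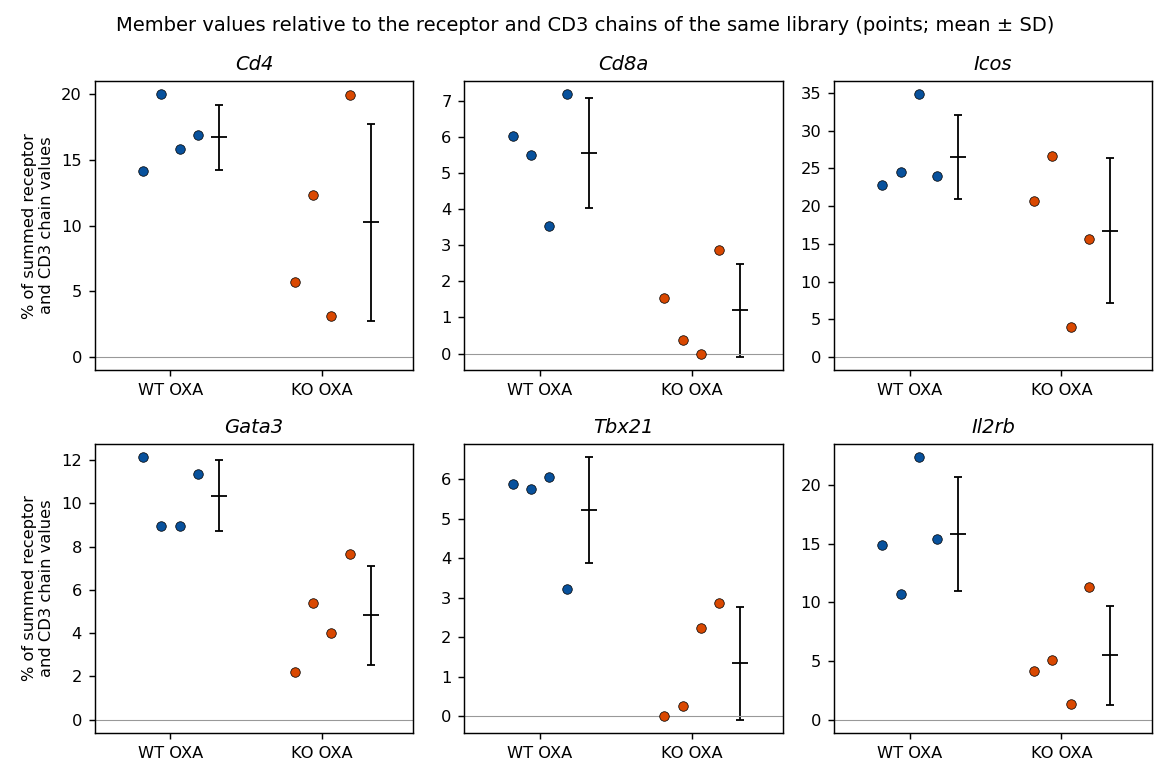
Values of 6 members as a percentage of the summed receptor and CD3 chain values of the same library, for WT OXA (blue) and KO OXA (orange); points are libraries and bars the mean ± SD (n = 4). Of the 6 shown, the groups do not overlap for Cd8a, Gata3 and Tbx21, and they do for Cd4, Icos and Il2rb.

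Genes that act beside the members moved with OXA in WT as well. Of 23 other receptor signalling genes tested (24 listed), 13 rose in WT and none fell. Lcp2, the adaptor SLP-76, rose by 2.16 ± 0.31 (limma, adjusted p = 2.83e-05), the adaptor Fyb by 3.16 ± 0.54 (adjusted p = 0.000181) and the phosphatase Ptpn22 by 3.09 ± 0.55 (adjusted p = 0.000248). In KO, 2 of the 23 rose, where 1.81% of all genes tested did. These were Lcp2 by 1.78 ± 0.31 (limma, adjusted p = 0.00209) and Fyb by 2.27 ± 0.54 (adjusted p = 0.0311). Under OXA, 8 of the 23 were lower in KO than in WT, where 12.9% of all genes tested were. Among them was Ptpn22, by -2.83 ± 0.55 (limma, adjusted p = 0.00065). For Tespa1, a signalling protein of thymocytes, the KO effect minus the WT effect was -4.34 ± 0.87 (limma, adjusted p = 0.00202).

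Ligands of the costimulatory and checkpoint receptors were measured in the same tissue. Of 7 tested (9 listed), 5 rose in WT and 2 in KO, where 18.0% and 1.81% of all genes tested rose. Cd274 and Pdcd1lg2, the ligands of PD-1, rose in both genotypes: Cd274 by 2.91 ± 0.69 in WT (limma, adjusted p = 0.00296) and 3.11 ± 0.69 in KO (adjusted p = 0.0185), and Pdcd1lg2 by 3.41 ± 0.82 (adjusted p = 0.00341) and 3.46 ± 0.82 (adjusted p = 0.0309). Cd80, a ligand of CD28 and CTLA-4, rose by 1.74 ± 0.34 in WT (limma, adjusted p = 0.000594), and Tnfsf4, the ligand of OX40, by 3.22 ± 0.79 (adjusted p = 0.00363). Of 5 other checkpoint receptors tested (8 listed), 4 rose in WT, among them Pdcd1 (PD-1) by 4.02 ± 0.81 (limma, adjusted p = 0.000784) and Havcr2 (TIM-3, also made by myeloid cells) by 2.998 ± 0.67 (adjusted p = 0.00181). Havcr2 was the 1 gene of this list that rose in KO, by 3.60 ± 0.67 (limma, adjusted p = 0.00384).

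Of the homing and residency receptors, 10 of 12 tested (14 listed) passed in WT and 3 in KO, where 34.0% and 1.90% of all genes tested did. Ccr7, which guides naive and central memory T cells and dendritic cells to lymph nodes, rose by 3.65 ± 0.62 in WT (limma, adjusted p = 0.000153). Cxcr6, a receptor of tissue T cells, rose by 3.72 ± 0.67 in WT (limma, adjusted p = 0.000273) and 2.76 ± 0.67 in KO (adjusted p = 0.0329), and was lower in KO under OXA by -2.23 ± 0.67 (adjusted p = 0.0164). None of the 4 tested homeostatic cytokines and their receptor chain (Tslp, Il15, Il7 and Il15ra, of 6 listed) was called in WT or in KO by limma, edgeR or DESeq2, with none at an unadjusted p under 0.05; Tslp had a log2 fold change of 0.83 ± 0.40 in WT (limma, adjusted p = 0.118). Il2rg, the gamma chain shared by the IL-2, IL-7 and IL-15 receptors, was listed at 0 in all 16 libraries. Gm20489, a gene model that overlaps it on the same strand, was also listed at 0 throughout, as was Itgam, a leukocyte integrin chain. Reads that were not counted and a lack of expression cannot be told apart for these genes.

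Marker lists of other cells also held called genes in the same comparisons. Natural killer and cytotoxic markers summed to 37.1 to 147 in WT vehicle, 534 to 899.7 in WT OXA, 14.6 to 52.6 in KO vehicle and 127 to 867 in KO OXA. Of 8 tested (9 listed), 7 rose in WT and 5 in KO, beside the rises of Il2rb and Tbx21 in WT. Pan-leukocyte markers rose for 7 of 8 genes in WT and 6 of 8 in KO, with sums of 1726 to 2019, 5997 to 7109, 1101 to 2840.1 and 2963 to 6756 in WT vehicle, WT OXA, KO vehicle and KO OXA. The gamma chain constant region Tcrg-C2, chosen after its values were seen, rose in WT by 3.94 ± 0.93 (limma, adjusted p = 0.00283). Of the 7 tested gamma-delta T cell genes (8 listed) 1 rose and 1 fell there, 14.3% each, which is near the shares of all genes. The gamma-delta list summed to 479 to 962 in WT vehicle and 569 to 860.5 in WT OXA, with overlap. Of the 7 group 2 innate lymphoid cell markers, 2 rose in WT and 1 in KO. B cell markers (4 tested of 8 listed) had no call in WT by limma, edgeR or DESeq2 and none at an unadjusted p under 0.05, with sums of 20.1 to 46.4 in WT vehicle and 32.2 to 85.7 in WT OXA. Of 8 listed immature thymocyte markers, Rag1 was the 1 at 0 in all 16 libraries, and for it reads not counted and a lack of expression cannot be told apart. That list summed to 109 to 281 in WT vehicle and 271 to 351 in WT OXA, with overlap. In WT, limma called none of the 3 tested, with 2 at an unadjusted p under 0.05, and edgeR and DESeq2 called 1 each.

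Lists of myeloid and epithelial cells had calls as well. Of the 7 tested macrophage and monocyte markers (8 listed), 3 rose in WT and 4 in KO. Lyz2 and C1qb were higher in KO than in WT under OXA, by 0.65 ± 0.23 and 0.79 ± 0.24 (limma, adjusted p = 0.038 and 0.0195). The test of the difference between the OXA effects also called these 2 genes, with a larger effect in KO. The list summed to 4167 to 4790.2 in WT vehicle, 4812 to 6032 in WT OXA, 2339 to 3832 in KO vehicle and 5485 to 13453 in KO OXA. Of the 8 dendritic and Langerhans cell markers, 5 rose and 1 fell in WT, and 1 rose in KO. Their sums were 463 to 542 and 720.0 to 815 in WT vehicle and WT OXA, and 409 to 609 and 462 to 853 in KO vehicle and KO OXA.

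Squamous epithelium markers, from the cells that line the esophagus, summed to 1270230 to 1872390 in WT vehicle and 444054 to 730025 in WT OXA, with every WT OXA library below every WT vehicle library. In KO the sums were 1341060 to 1650530 under vehicle and 1244940 to 2721710 under OXA, and all KO OXA libraries were above WT OXA. Of the 8 genes, Krt14, Cdh1 and Dsg3 rose and Krt15 and Krt13 fell in WT. None was called in KO by limma or edgeR and 1 was by DESeq2, with 1 at an unadjusted p under 0.05 by limma. Under OXA, 2 of the 8 were higher and 3 lower in KO than in WT (limma, adjusted p under 0.05), where 14.6% and 12.9% of all genes tested were. The part of all these other cells in the members' values was not tested.

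**Figure D5:**
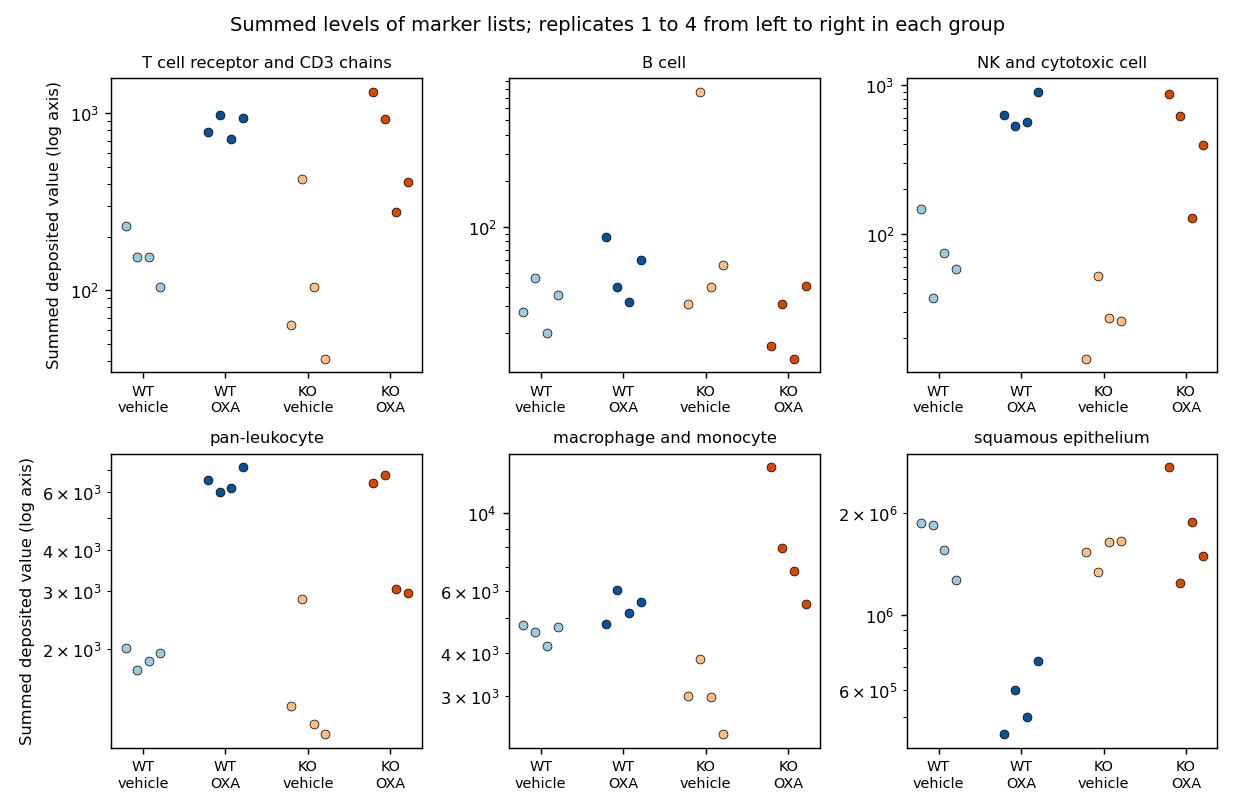
Summed deposited values of 6 marker lists in every library (points, replicates 1 to 4 from left to right in each group; log vertical axis, different in each panel). The B cell sum of KO vehicle replicate 2 stands above all other libraries at 765, and KO OXA replicates 3 and 4 are the lowest of their group for the receptor and CD3 chains.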

How the data were processed

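Per the submitters' processing notes, the authors used FastQC 0.11.5, Trim Galore, cutadapt 1.10, TopHat2 2.1.0, Bowtie2 2.2.6, HTSeq 0.6.1 and DESeq2 1.28.0 with GRCm38. The annotation release, strand setting and handling of molecular identifiers are not given in the sources used here. What the authors deposited is a signal, in which each library's whole reads per gene were scaled by 1 constant. Within each library 100% of values were whole reads within a tolerance of 0.1 read, and these reads gave the depth and served the fits of DESeq2 1.42.0 and of edgeR 4.0.16 (TMM, quasi-likelihood). With reads from 5.61 to 27.3 M per library, 1 read was worth between 0.363 and 2.23 in the deposited unit, which sets the steps of low values.

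The test was limma 3.58.1 (R 4.3.3) on log2(value + 1) over 16 libraries in 4 groups, with eBayes and a trend, two-sided, with Benjamini-Hochberg adjustment over 16748 genes with 5 or more in 4 or more libraries, and a threshold of 0.05. Fold changes are on that scale, where low genes change less than in the values themselves, with 12 residual degrees of freedom. On simulated data for the WT comparison, the fit called 49 of 100 genes changed 2-fold, 98 of 100 changed 4-fold and 11 of 15610 unchanged genes, out of 15810. All 16 simulated libraries took their means from WT vehicle and their spread from the WT libraries alone, so the spread of the KO libraries was not covered. The changed genes were drawn from those with a mean of at least 20 in WT vehicle. These rates therefore do not cover members below that mean, such as Tbx21 (2.45) and Cd4 (4.86).

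All 37 members are named. From each companion list up to 4 tested genes with the smallest p in WT and 2 in KO could be named. The members and lists were chosen with earlier results of these data known. Gene coordinates are those of the deposited table on GRCm38, which are identical in GENCODE M21 for 34 of 37 members, all but Cd5, Ubash3a and Foxp3. Strands and overlapping genes are those of GENCODE M21. Groups came from the titles, replicate numbers follow accession order and pair nothing. Alternatives were pseudocounts of 0.5 and 5, no filter, a filter of 20, equal library totals, quantile normalization, only the groups compared, no trend, array weights, edgeR, DESeq2, reads thinned to 5.61 M, and each of 16 libraries left out.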

Additional observations from a re-analysis of the deposited data

Results flagged for a closer look

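Among 148 sets of 4 libraries (1 gene in 1 group), 16 held a library whose gap to the nearest other exceeded 0.829 of the range, Dixon's 95% limit, which chance exceeds in about 1 of 20 sets. In 4 of the 16 sets the other 3 libraries were all at 0, so that any value above 0 exceeds the limit, and in 2 of these, both of Tcf7, the value was 1 read. KO vehicle replicate 2 was high for Trbc1 (16.4), Trbc2 (305), Cd3e (6.04), Cd3g (19.9), Ubash3a (3.45), Skap1 (150.2), Ltb (72.5) and Tcf7 (5.18). It is also the library with B cell markers summing to 765, and their part in these values was not tested.

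WT vehicle replicate 2 was high for Trbc2 (128), and WT vehicle replicate 1 for Cd3e (12.4) and, at 1 read, Tcf7 (1.38). WT OXA replicate 4 was high for Cd8b1 (27.0), and WT OXA replicate 3 was low for Lat (61.6) and Themis (156). KO OXA replicate 3 was low for Il2rb (3.71), and KO OXA replicate 2 held 1 read of Tcf7 (1.19).

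The OXA effect was smaller in KO than in WT, by the test of the difference itself, for Cd4 (-3.78 ± 0.88, limma, adjusted p = 0.00601), Skap1 (-4.25 ± 1.33, adjusted p = 0.0327) and Tbx21 (-5.45 ± 1.24, adjusted p = 0.0051). The Skap1 call was lost in 11 of 27 alternatives. These calls were 8.33% of the members tested, near the 7.67% of all genes tested that were called in this direction.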

How the results depend on the processing

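The count of members called between OXA and vehicle in WT was 26 and stayed between 22 and 30 over 28 alternatives (22 to 27 with each library left out), and 18 of the 26 calls held in all of them; no member's called direction reversed in any comparison. Over all genes the WT count was 5692 and ran from 4472 to 6138 with a library left out. In KO the count of 2 members became 7 with DESeq2 and 1 with no filter or equal library totals. It became 0 with only the groups compared, no trend or array weights, and ran from 0 to 6 with a library left out. Over all genes the KO count of 318 became 722 with DESeq2, 230 with no filter and 244 with equal library totals. It was 199 with only the groups compared, 260 with no trend and 400 with array weights. For the difference of the effects the count of 3 members became 5 with a pseudocount of 5, 8 with equal library totals and 7 with array weights. It was 2 to 6 when a library was left out. Over all genes the count of 2982 became 3072, 4342 and 3491 in the same order, with 2222 to 3477 when a library was left out. For KO against WT under OXA the count of 7 members became 4 with a pseudocount of 0.5 and 15 with a pseudocount of 5 or with equal library totals. It was 14 with only the groups compared and 17 with array weights, with 4 to 10 when a library was left out. Over all genes the count of 4617 became 4561 and 4812 with these pseudocounts and 6384 with equal library totals. It was 4541 with only the groups compared and 5387 with array weights, with 3618 to 5102 when a library was left out. Under vehicle the count of members was 0 in all 28 alternatives. The cause of these shifts was not tested. Depth differed between groups, and thinning all libraries to 5.61 M reads gave 25 member calls in WT and 2 in KO. It gave 3 for the difference and 6 for KO against WT under OXA. Over all genes it gave 5242, 273, 2646 and 4334 calls in the same order. For genes of a few reads, changes below the spread of 4 libraries were not detectable at this depth.

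No paired analysis was possible because no label says that the digits of the title codes, which recur across groups and also within WT OXA, mark a shared animal, litter or batch, and the replicate numbers used here follow the order of accession.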
